A study of Mus musculus with 2 samples.

Results

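Of the 2202 miRNA genes annotated in the mouse genome build mm10 (GENCODE M21), 6 carry the symbols Mir10a, Mir10b, Mir196a-1, Mir196a-2, Mir196b and Mir615. These 6 genes, which lie inside the clusters of Hox genes, were taken by their symbols, a choice made with earlier results of these data known. They were read in microRNA sequencing of left cerebral cortex, a tissue of the forebrain, from B6CASTF1/J mice aged 18 to 20 months. B6CASTF1/J is the hybrid of C57BL/6J and CAST/EiJ mice, and no agent or induced mutation is named. The study held 1 group of 2 libraries, called replicate 1 and replicate 2, made from RNA shorter than 30 nt. The labels call them biological replicates but tie both to a single donor record, so differences between them may be technical. The binomial p-values between them cover counting noise only. The labels also give the sex as male in one field and female in another. No other region, age or treatment was measured, and no Hox mRNA was counted.

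Hox genes encode the transcription factors that set position along the body axis, and in the brain they are known for their expression in the hindbrain and spinal cord rather than the forebrain. Their miRNA genes are transcribed from within the clusters. miR-196 directs cleavage of the Hoxb8 mRNA in the mouse, and human miR-10b represses HOXD10, so these miRNAs act in part on the neighbouring Hox genes.

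The 4 clusters held 7 annotated miRNA genes between their first and last Hox gene, and the members were 6 of these. Gm44463, on the minus strand of the Hoxd cluster, was the other, and it had 0 reads in both libraries. Mir10b (ENSMUSG00000065500.3) lies on chromosome 2 at 74726070 to 74726137, plus strand, in introns of Hoxd4 and of a long transcript of Hoxd3. Mir10a (ENSMUSG00000065519.1) lies on chromosome 11 at 96317165 to 96317274, plus strand, between Hoxb5 and Hoxb4 and 993 bases upstream of Hoxb4. On the same chromosome and strand, Mir196a-1 (ENSMUSG00000065546.1) at 96265164 to 96265265 lies 6192 bases upstream of Hoxb9. Mir196a-2 (ENSMUSG00000065488.2) lies on chromosome 15 at 102973350 to 102973434, plus strand, between Hoxc10 and Hoxc9 and in an intron of a long Hoxc5 transcript. Mir615 (ENSMUSG00000076010.1) lies at 103014910 to 103015001 of chromosome 15, plus strand, in an intron of Hoxc5. Mir196b (ENSMUSG00000065443.1) lies on chromosome 6 at 52230081 to 52230165, minus strand, within Hoxa9, where 2 of the 3 transcripts that contain it hold it in an exon and 1 in an intron. All 6 are on the strand of their cluster's Hox genes.

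**Figure D1:**
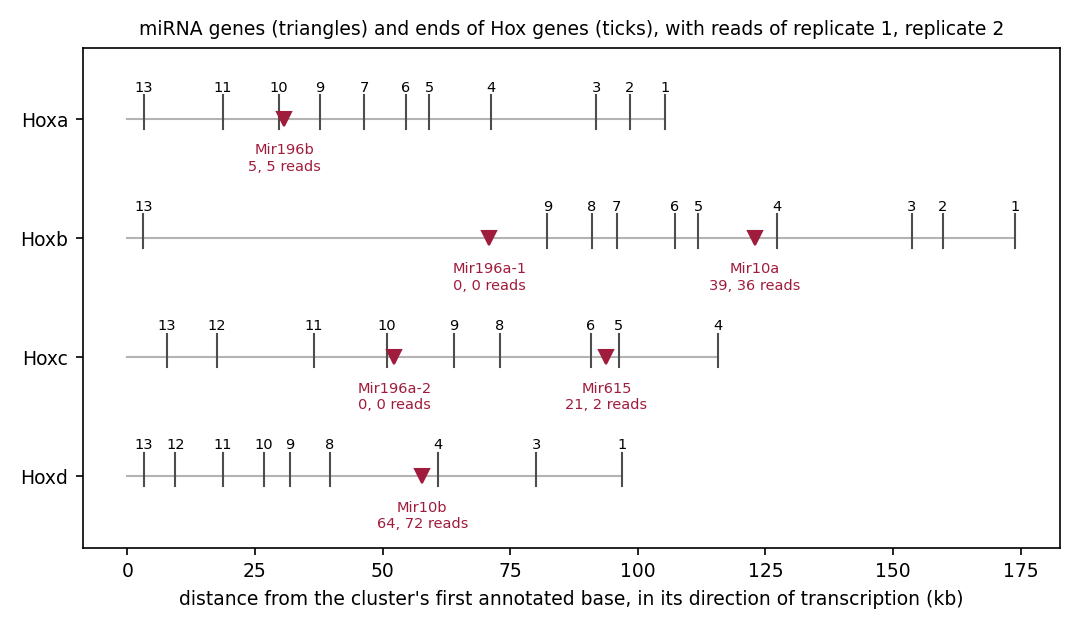
Map of the 4 Hox clusters, with kilobases from the first annotated base in the direction of transcription on the x axis. Ticks mark the annotated 3′ ends of the numbered Hox genes, and triangles mark the 6 miRNA genes with their reads in replicate 1 and replicate 2, from 64 and 72 at Mir10b to 0 and 0 at both miR-196a genes.

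The mature sequences decide which reads can be told apart, and they are shown for that reason. RefSeq gave mature sequences for all 6 genes (build GRCm38.p6), written 5′ to 3′ with the seed, bases 2 to 8, in capitals. The miR-10 and miR-196 genes are shown by their 5p arm, the miR-196a genes also by the 3p arms that set them apart, and Mir615 by both arms.

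miR-10a-5p (Mir10a): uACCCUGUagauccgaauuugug
miR-10b-5p (Mir10b): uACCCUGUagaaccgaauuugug
miR-196a-5p (Mir196a-1 and Mir196a-2): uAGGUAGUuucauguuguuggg
miR-196a-1-3p (Mir196a-1): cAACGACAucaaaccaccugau
miR-196a-2-3p (Mir196a-2): uCGGCAACaagaaacugccuga
miR-196b-5p (Mir196b): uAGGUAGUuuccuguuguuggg
miR-615-5p (Mir615): gGGGGUCCccggugcucggauc
miR-615-3p (Mir615): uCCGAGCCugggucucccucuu

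The sequences form a miR-10 pair and a miR-196 trio, and Mir615 stands alone. miR-10a-5p and miR-10b-5p share the seed ACCCUGU and differ by U12A, counted from 1 at the 5′ end with the miR-10a base first. miR-196a-5p and miR-196b-5p share the seed AGGUAGU and differ by A12C, with the miR-196a base first. The 5p sequence of Mir196a-1 and Mir196a-2 is the same in all 22 bases, whereas their 3p sequences differ at 17 of 22 positions. No other member had an exact copy of a mature sequence in an annotated transcript of another gene. The deposited tables put reads that map to several places on a line of their own, and a read of miR-196a-5p matches both genes equally, so the counts under the miR-196a genes cannot measure that arm.

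Replicate 1 held 8041772 reads and replicate 2 held 12239366, of which 2381663 and 4436398 lay on the sense strand of a miRNA gene. Levels are given as CPM, the reads of a gene per 1000000 of these sense reads, and the limit given for a count of 0 is that of 3 reads, a level of 1.26 CPM in replicate 1 and 0.676 CPM in replicate 2. The two-sided 95% Poisson interval of 0 reads reaches 1.55 CPM in replicate 1, and in replicate 2 it reaches 0.832 CPM. Intervals are two-sided 95% exact Poisson intervals for single genes and exact binomial intervals for shares, ratios and list sums, and they and the limits cover counting error only. Multimapping reads were 35.6% of replicate 1 and 44.8% of replicate 2. The tissue label was set beside miRNAs of neural cells, whose 11 listed genes all had reads. They summed to 90362 CPM in replicate 1 and 71516 CPM in replicate 2. Most of this was the activity-regulated neuronal Mir132, for which replicate 1 gave 69646 CPM and replicate 2 gave 43349 CPM. The median gene of the list had a mean of 50.8 CPM, and 7 of the 11 had at least 10 reads in each library. The sum thus rests largely on 1 gene and is a weak check of the tissue.

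Few reads were assigned to the Hox-cluster genes. The 6 genes had 129 reads in replicate 1, a summed level of 54.2 CPM (95% interval 45.2 to 64.4), and 115 reads in replicate 2, a summed level of 25.9 CPM (21.4 to 31.1). The mean was 40.0 ± 20.0 CPM (SD, n = 2). Mir10b and Mir10a carried most of it. Reads of miR-196a-5p that match both miR-196a genes are not in these sums. A read in either library was seen at 4 of the 6 genes (66.7%), against 728 of all 2202 genes (33.1%), and at least 10 reads in each library at 2 of the 6 (33.3%), against 367 of all (16.7%).

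Mir10b, the Hoxd member of the miR-10 pair, had the highest counted level of the 6. It had 64 reads in replicate 1, a level of 26.9 CPM (20.7 to 34.3), and 72 reads in replicate 2, a level of 16.2 CPM (12.7 to 20.4). Its mean of 21.6 ± 7.53 CPM (SD, n = 2) ranked 265 of 2202 genes. Mir10b held 49.6% of the reads of the 6 genes in replicate 1 (40.7 to 58.5) and 62.6% in replicate 2 (53.1 to 71.5).

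Mir10a, the Hoxb member of the pair, had 39 reads in replicate 1, a level of 16.4 CPM (11.6 to 22.4), and 36 reads in replicate 2, a level of 8.11 CPM (5.68 to 11.2). Its mean of 12.2 ± 5.84 CPM (SD, n = 2) ranked 297. Mir10b had 1.64 reads per Mir10a read in replicate 1 (1.09 to 2.51) and 2.00 in replicate 2 (1.32 to 3.07), so Mir10b was ahead in both libraries and the intervals of the ratio lay above 1. Across libraries, however, the levels overlapped, since Mir10a had 16.4 CPM in replicate 1, above the 16.2 CPM of Mir10b in replicate 2. Since the RNA was shorter than 30 nt, a read covers about 1 mature arm of 22 or 23 bases, so CPM is not divided by hairpin length. Divided by the hairpins of 68 bases for Mir10b and 110 for Mir10a and scaled to a sum of 1000000, the mean levels were 25.4 for Mir10b and 8.93 for Mir10a.

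Mir615, the Hoxc5 intron gene, was uneven between the libraries. It had 21 reads in replicate 1, a level of 8.82 CPM (5.46 to 13.5), and 2 reads in replicate 2, a level of 0.451 CPM (0.0546 to 1.63). It made up 16.3% of the reads of the 6 genes in replicate 1 (10.4 to 23.8) and 1.74% in replicate 2 (0.211 to 6.14). The mean of 4.63 ± 5.92 CPM (SD, n = 2), rank 363, has an SD larger than itself and describes neither library.

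The miR-196 genes, posterior members of their clusters, were at or near the limit of counting. Mir196b in Hoxa9 had 5 reads in each library, a level of 2.10 CPM in replicate 1 (0.682 to 4.90) and 1.13 CPM in replicate 2 (0.366 to 2.63), with a mean of 1.61 ± 0.688 CPM (SD, n = 2) at rank 458. Mir196a-1 and Mir196a-2 had 0 reads in both libraries, which allows up to 1.26 CPM in replicate 1 and 0.676 CPM in replicate 2 for each gene, of reads that can be assigned to 1 of the 2 genes, such as those of the 3p arms. The order Mir615 over Mir196b held in replicate 1 only, where 21 reads stood against 5. In replicate 2 it was 2 against 5, and the intervals of the levels overlapped.

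**Figure D2:**
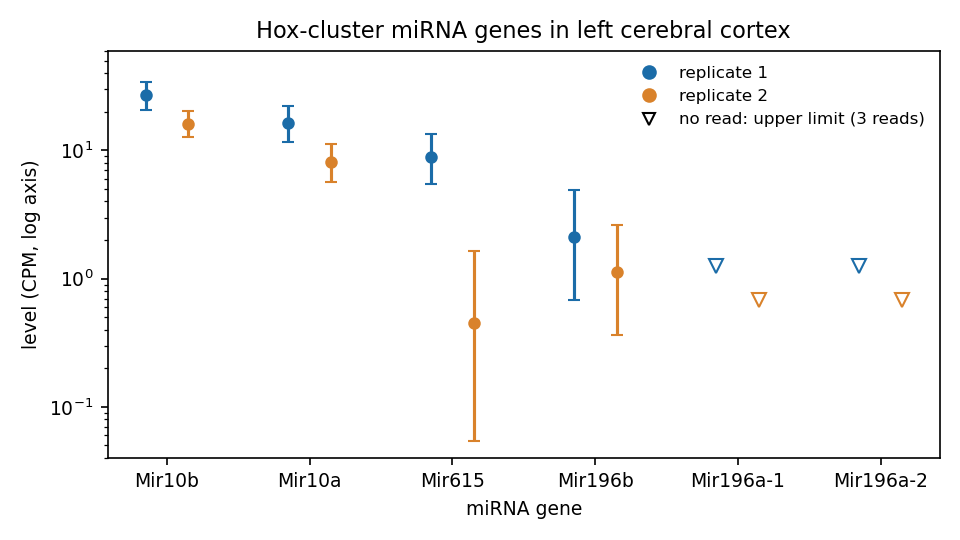
Levels of the 6 genes (x axis) in CPM on a log axis, replicate 1 in blue left of replicate 2 in orange. Points are single libraries, bars are 95% exact Poisson intervals and open triangles are the limits of 1.26 and 0.676 CPM that 3 reads give where none was seen; Mir615 shows the widest gap, at 8.82 and 0.451 CPM.

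On the opposite strand, the members had no read apart from 1 at Mir10a in replicate 2. The genes nearest in mean level to the miR-10 pair came from elsewhere in the genome. Mir135a-2 at 21.6 ± 11.7 CPM stood next above Mir10b and Mir200c at 20.8 ± 0.275 CPM next below (SD, n = 2). Next to Mir10a stood Mir494 at 12.5 ± 0.756 CPM above and Mir18 at 12.2 ± 4.15 CPM below. These 4 genes are like the pair in level only, since 1 group of 2 libraries gives no pattern across conditions.

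The closest relatives by sequence outside the Hox clusters were far more abundant. miR-99 and miR-100 carry a shifted form of the miR-10 sequence with the seed ACCCGUA, and their 5p arms are shown for the stretch they share with miR-10.

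miR-99a-5p (Mir99a): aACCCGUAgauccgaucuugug
miR-99b-5p (Mir99b): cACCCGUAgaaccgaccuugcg
miR-100-5p (Mir100): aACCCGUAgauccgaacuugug

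The longest run shared by miR-10a-5p and miR-100-5p, GUAGAUCCGAA, has 11 bases and starts at base 7 of miR-10a-5p and base 6 of miR-100-5p. With miR-10a-5p, the longest run has 10 bases in miR-99a-5p and 5 in miR-99b-5p. With miR-10b-5p, it has 5 bases in both miR-99a-5p and miR-100-5p, and miR-99b-5p was not compared. Mir99a had a level of 14799 CPM in replicate 1 and 9415 CPM in replicate 2. Replicate 1 gave 2182 CPM for Mir99b and 4685 CPM for Mir100, and replicate 2 gave 9306 CPM for Mir99b and 2648 CPM for Mir100. The 3 genes summed to 21665 CPM in replicate 1 and 21369 CPM in replicate 2. For each read of Mir10a and Mir10b together, the miR-99/100 genes had 501 in replicate 1 and 878 in replicate 2, and the sum of the Hox pair was 0.200% and 0.114% of theirs. In both libraries the pair lay far below its relatives, with counting intervals of 0.00163 to 0.00242 reads per miR-99/100 read in replicate 1 and 0.000934 to 0.00138 in replicate 2. The miR-125 genes, which lie near the miR-99/100 genes and carry the seed CCCUGAG, summed to 14230 CPM in replicate 1 and 30358 CPM in replicate 2. Among them, Mir125b-1 and Mir125b-2 have the same 5p arm, as the miR-196a genes do. Mir125b-1 had 2017 and 5134 reads in replicates 1 and 2, and Mir125b-2 had 1257 and 1719 reads. The arm that gave these reads is not recorded, so their counts cannot measure the shared 5p arm either. Why the miR-196a genes had no read was not tested.

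**Figure D3:**
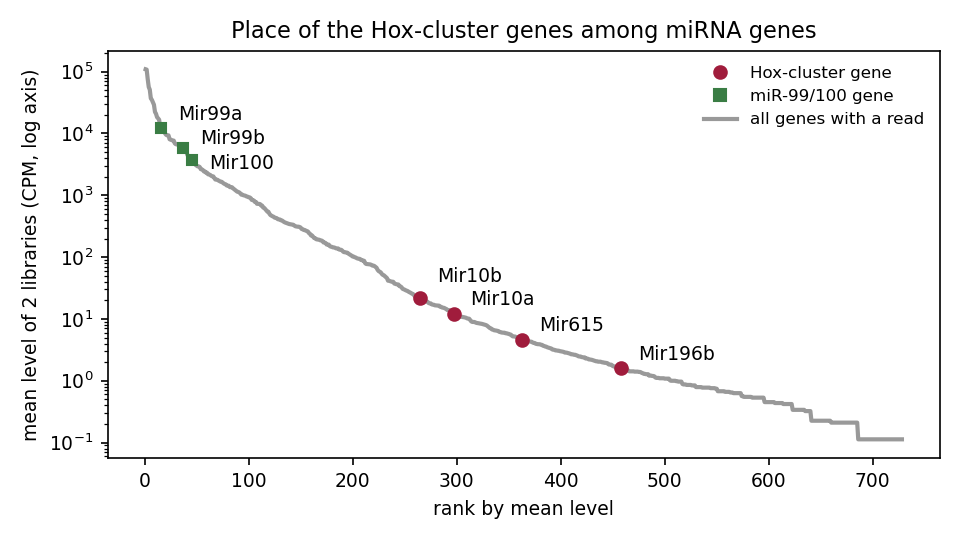
Mean level in CPM (log axis) of the 728 genes with a read against their rank. The Hox-cluster genes (red circles) lie between rank 265 for Mir10b and rank 458 for Mir196b, and the miR-99/100 genes (green squares) between rank 16 for Mir99a and rank 46 for Mir100.

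Lists of miRNAs of other cells and tissues give a scale for these levels. The vessel list, led by the endothelial Mir126a at 17007 and 18138 CPM, summed to 27936 CPM in replicate 1 and 23938 CPM in replicate 2. The blood list summed to 1965 and 1898 CPM, of which the lymphocyte miRNA Mir150 gave 1701 and 1769 CPM. The median gene of the blood list had a mean of 31.8 CPM. Of miRNAs from tissues absent from cortex, the hepatocyte miRNA Mir122 had 58.4 CPM (49.1 to 68.9) in replicate 1 and 76.0 CPM (68.1 to 84.5) in replicate 2. The muscle list of 10 genes, led by Mir206, summed to 29.4 CPM (22.9 to 37.1) and 27.5 CPM (22.8 to 32.8). Genes of embryonic stem cells reached 1.68 CPM (0.458 to 4.30) and 1.13 CPM (0.366 to 2.63) in sum. The 54.2 CPM of the Hox-cluster genes in replicate 1 overlapped the interval of Mir122 and exceeded that of muscle, while their 25.9 CPM in replicate 2 fell below Mir122 and overlapped muscle. The lists differ in how many genes have copies elsewhere, so the order of their sums need not be that of the miRNAs in the tissue.

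**Figure D4:**
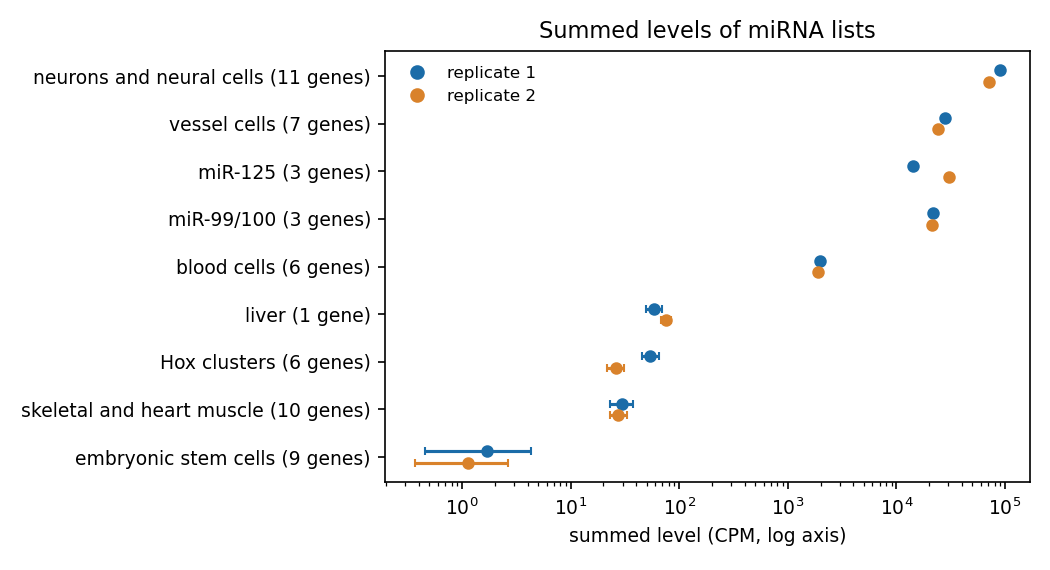
Summed levels of the lists in CPM (log x axis), replicate 1 in blue above replicate 2 in orange, with 95% exact binomial intervals. The Hox-cluster genes are at 54.2 and 25.9 CPM, the liver gene Mir122 at 58.4 and 76.0 CPM and the muscle list at 29.4 and 27.5 CPM.

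The only comparison that the labels allow is between the libraries. The 4 members with reads were all higher in replicate 1, where 217 of 472 tested genes (46.0%) were higher. For each gene with at least 10 reads in total, the split of its reads was set against that of the TMM library sizes (exact binomial test, two-sided, Benjamini-Hochberg adjustment over all 472). The members that passed, all higher in replicate 1, were 3 of 4, against 246 of 472 genes (52.1%) in either direction and 116 (24.6%) higher in replicate 1. Among the 205 genes with totals of 10 to 136 reads, the range of the members, 36 (17.6%) passed, and 17 (8.29%) passed higher in replicate 1. The test covers counting noise only, and it says nothing of a condition.

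Mir615 differed most, at 21 reads in replicate 1 and 2 in replicate 2, a ratio of 19.9 with a 95% counting interval of 4.87 to 175 (log2 ratio 4.32, exact binomial adjusted p = 6.77e-08). Ordered by ratio with 0.5 reads added to each count, it was number 2 of the 472 genes and number 1 of the 205 in the same range of reads. Mir10a was higher in replicate 1 by a ratio of 2.06 (1.27 to 3.33, log2 ratio 1.04, exact binomial adjusted p = 0.00489). Mir10b was higher there by a ratio of 1.69 (1.19 to 2.40, log2 ratio 0.76, exact binomial adjusted p = 0.0062). For Mir196b the ratio of 1.90 had an interval of 0.437 to 8.25 that spans 1 (exact binomial adjusted p = 0.447), so no difference was detectable at this depth.

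The exact test of edgeR was also run, with a dispersion estimated from the same 2 libraries. The dispersion is common to the 472 tested genes and comes from the differences between the same libraries, so few calls follow from the construction. The test thus sets a member against the typical spread between these libraries, and a missed threshold does not show equal levels. It gave adjusted p = 0.0812 for Mir615 and adjusted p = 1 for Mir10a, Mir10b and Mir196b. It called 0 of the 4 members and 2 of 472 genes (0.424%). At an unadjusted p under 0.05 it held 1 of the 4, Mir615 (edgeR exact p = 0.000516), and 28 of the 472. The edgeR exact p was 0.224 for Mir10a, 0.341 for Mir10b and 0.46 for Mir196b, so these members did not stand out from the typical spread. Between the same libraries the vessel list stood at 27936 and 23938 CPM, the blood list at 1965 and 1898 CPM and the share of unmapped reads at 30.8% and 14.6%, and their part in the differences was not tested.

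**Figure D5:**
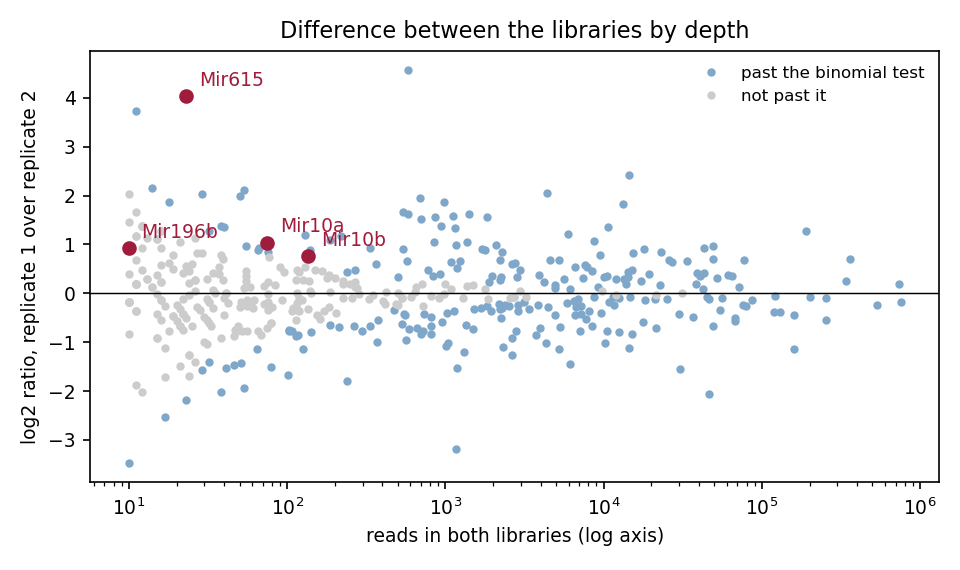
Log2 ratio of replicate 1 over replicate 2 (y axis, TMM scaled, 0.5 reads added to each count) against the reads in both libraries (log x axis) for the 472 tested genes. Blue points passed the binomial test, grey points did not, and the 4 Hox-cluster genes with reads (red) all lie above 0, with Mir615 at 4.03.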

How the data were processed

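The authors deposited 1 table of raw read counts per miRNA gene for each of the 2 libraries. Genome build (mm10) and annotation (GENCODE M21) are named in the text deposited beside each table, while an aligner or trimming step is not given in the sources used. Each table opens with 4 lines of summary counts (70.4% of the reads of replicate 1 and 63.8% of replicate 2), which entered neither library sizes nor tests. Of the 3 count columns, the column of the gene's own strand was used. All 2202 gene identifiers matched GENCODE M21.

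CPM was computed here from the deposited counts, with sense miRNA reads as the total. TMM factors (0.9905 for replicate 1 and 1.01 for replicate 2) came from edgeR 4.0.16 in R 4.3.3, over the 472 genes with at least 10 reads in total. The edgeR dispersion was fitted with an intercept alone over the same genes (coefficient of variation 0.351). The binomial test and intervals used scipy 1.17.1 in Python 3.11.15 with numpy 2.4.6, pandas 2.3.3 and matplotlib 3.10.9. The test was tested on simulated data with counting noise only, the noise it assumes, so this does not cover spread between libraries. With 1 group, no quasi-likelihood test exists. The libraries differed by a chi-square of 284 per degree of freedom over 728 genes, so they were not 1 library deposited as 2.

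Mature sequences came from RefSeq (GRCm38.p6), and exact copies, on either strand, were searched in GENCODE transcripts outside the gene's own locus. No genome sequence was used. The members, lists and tests were chosen with earlier results of these data known. Of the embryonic stem cell list, 9 of 10 symbols matched. Named are the 6 members, the other miRNA gene in the clusters, the miR-99/100 and miR-125 genes, the genes next in level to Mir10a and Mir10b, and the leading gene of a list.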

Additional observations from a re-analysis of the deposited data

How the results depend on the processing

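All 22 results for the 6 Hox-cluster miRNA genes were recomputed under the alternatives, 120 values in all. Only the log2 ratios between the libraries have a direction, and none reversed under alternatives that all kept the same 2 libraries. For the levels the alternatives are no measure of stability. Leaving out 1 of 2 libraries always moves a mean by less than their SD, and levels of 0 cannot move. With all reads of a library as the denominator, mean levels fell for every member with reads. They were 3.90 reads per 1000000 for Mir10a, 6.92 for Mir10b, 1.39 for Mir615 and 0.515 for Mir196b. The sum was 12.7. With both strands counted together Mir10b ranked 241. It had no read on the opposite strand in either library, so reads of that strand did not raise it. At least 10 reads in each library were seen at 2 members, against 367 of 2202 genes (16.7%). At least 1 read in each library was seen at 4 members, and the share of all genes at that minimum was not computed. With edgeR's exact test 0 members passed, against 2 of 472 genes (0.424%). The log2 ratio was 1.04 for Mir10a, 0.75 for Mir10b and 4.21 for Mir615. The loss of calls follows from a dispersion taken from the differences of all tested genes between the same libraries. With either library left out, the mean level ran from 8.11 to 16.4 CPM for Mir10a, 16.2 to 26.9 CPM for Mir10b and 0.451 to 8.82 CPM for Mir615. The sum ran from 25.9 CPM without replicate 1 to 54.2 CPM without replicate 2, and the rank from 315 to 577 for Mir615. Both miR-196a genes tied with all genes without a read, at rank 729 over both libraries. That tie stood at 682 without replicate 1 and 628 without replicate 2, which depends only on how many other genes had reads. Mir615 had at least 10 reads in replicate 1 only, so 3 members passed a minimum of 10 without replicate 2. No share of all genes was computed for that library alone. The alternatives with 1 CPM added to each level and with TMM factors over all annotated genes were chosen after seeing the data. With these TMM factors 3 members passed the binomial test, against 250 of 472 genes (53.0%). The added 1 CPM enters the ratio and not the test, and gave a log2 ratio of 2.78 for Mir615. No ratio between the libraries exists with a library left out, and Mir196b had too few reads for the test at 20 in total. Depth limits all members: a gene with 5 reads has an interval spanning several-fold.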
